A study of Homo sapiens with 6 samples.

Results

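The authors' table of all genes held 61556 rows, of which 939 carried an assembler's locus number (XLOC) in place of an Ensembl identifier. These 939 assembled loci, chosen by that locus number alone, are stretches that the read assembly outlined and that carry no Ensembl identifier. The remaining 60617 rows were Ensembl genes. The series holds 6 RNA-seq libraries from cells labelled both EA.hy926, an established hybrid endothelial line made by fusing a human umbilical vein endothelial cell with the lung carcinoma line A549, and human umbilical vein endothelial cells. The labels do not settle which of these the cells were. The control group held 3 libraries of cells labelled wild type with no agent named in their titles, and the LPS group held 3 libraries of cells given lipopolysaccharide (a glycolipid of the Gram-negative outer membrane) at 1000 ng/ml. All libraries carried the time label 12 h and the same culture description (DMEM with fetal bovine serum), and a treatment field that read the same for controls and LPS cells, so groups were taken from the titles. Nothing in the labels ties replicates to separate cultures, and the spread behind each p-value may therefore be that of technical repeats.

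A transcript assembler joins overlapping read alignments into transcript models, and models that match no known gene receive serial names. Such models can be long noncoding RNAs, extensions of a known gene beyond its annotated end, antisense or upstream transcripts starting beside a known promoter, or pieces of repeated sequence. They are usually far less abundant than messenger RNA, and their outline depends on the annotation release used and on depth. In endothelial cells, LPS is bound by Toll-like receptor 4 and switches on inflammatory genes through NF-kB and interferon signalling, and a number of noncoding transcripts are known to take part in such responses.

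The RefSeq promoter table (GRCh38.p14) had windows that overlapped 108 of the loci, and 6 of these windows are shown here because they place a locus relative to a known gene start: those of the 10 most abundant loci that had one, and those of protein-coding genes that met a tested locus. Capitals mark bases that lie inside the assembled locus. The first pair belongs to RefSeq long noncoding RNAs, whose starts fell 58 and 62 bases inside the outer ends of XLOC_110505 and XLOC_035074, both among the 10 most abundant loci. Each window runs from 250 bases before the start to 50 after it, on the minus strand, at chr4:114364864-114365163 and chr12:88419230-88419529.
LOC105377378 window, XLOC_110505: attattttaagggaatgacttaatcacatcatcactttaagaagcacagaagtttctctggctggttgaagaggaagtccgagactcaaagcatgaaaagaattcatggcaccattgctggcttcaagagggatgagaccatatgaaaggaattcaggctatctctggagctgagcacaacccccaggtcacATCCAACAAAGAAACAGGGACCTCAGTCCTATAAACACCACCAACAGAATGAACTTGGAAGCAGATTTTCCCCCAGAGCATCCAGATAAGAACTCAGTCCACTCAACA
LOC124902978 window, XLOC_035074: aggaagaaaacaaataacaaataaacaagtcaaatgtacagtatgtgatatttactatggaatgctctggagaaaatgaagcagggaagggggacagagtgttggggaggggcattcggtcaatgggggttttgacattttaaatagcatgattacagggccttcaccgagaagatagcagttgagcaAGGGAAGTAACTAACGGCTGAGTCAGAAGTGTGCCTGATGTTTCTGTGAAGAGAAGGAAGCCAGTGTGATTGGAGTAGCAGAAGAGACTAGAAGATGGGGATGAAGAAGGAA

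The next 4 are the windows of protein-coding genes that overlapped a tested locus (mean of 0.5 FPKM or more), shown as the 250 bases before the start. XLOC_150674 began 64 bases from the start of TEX10, on its upstream side, and XLOC_095921 began 169 bases upstream of CNBP, which encodes a zinc finger nucleic acid binding protein. XLOC_137679 ended 235 bases upstream of PPIA, which encodes the prolyl isomerase cyclophilin A. XLOC_013630 lay on the transcribed side of the SIPA1L2 start and ended 12 bases from it, so its printed window holds no capitals. The windows lie at chr9:100352943-100353192, chr3:129183897-129184146 and chr1:232630134-232630383 on the minus strand and, for PPIA, at chr7:44796431-44796680 on the plus strand.
TEX10 window, XLOC_150674: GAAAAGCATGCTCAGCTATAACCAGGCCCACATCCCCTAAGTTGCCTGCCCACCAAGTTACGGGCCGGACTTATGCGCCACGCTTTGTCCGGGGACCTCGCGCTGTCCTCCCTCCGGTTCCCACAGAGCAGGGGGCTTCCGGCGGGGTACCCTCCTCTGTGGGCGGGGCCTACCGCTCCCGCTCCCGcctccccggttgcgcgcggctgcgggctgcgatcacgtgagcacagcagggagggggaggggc
CNBP window, XLOC_095921: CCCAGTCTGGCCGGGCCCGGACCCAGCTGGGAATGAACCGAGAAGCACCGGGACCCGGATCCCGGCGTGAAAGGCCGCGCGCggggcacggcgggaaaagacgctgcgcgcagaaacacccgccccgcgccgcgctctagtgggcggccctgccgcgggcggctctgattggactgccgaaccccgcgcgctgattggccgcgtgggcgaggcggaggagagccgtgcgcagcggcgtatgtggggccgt
PPIA window, XLOC_137679: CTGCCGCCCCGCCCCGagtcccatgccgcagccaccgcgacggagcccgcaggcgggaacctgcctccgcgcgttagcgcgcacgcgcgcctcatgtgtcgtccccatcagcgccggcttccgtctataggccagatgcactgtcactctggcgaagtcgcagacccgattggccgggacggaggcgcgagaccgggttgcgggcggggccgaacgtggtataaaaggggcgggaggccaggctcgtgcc
SIPA1L2 window, XLOC_013630: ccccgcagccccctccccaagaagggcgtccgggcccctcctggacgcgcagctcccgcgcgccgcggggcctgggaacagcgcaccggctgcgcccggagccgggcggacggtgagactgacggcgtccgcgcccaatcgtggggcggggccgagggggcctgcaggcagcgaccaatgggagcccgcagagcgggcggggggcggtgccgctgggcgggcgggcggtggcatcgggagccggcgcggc

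The 2 noncoding windows were poor in CpG and the 4 coding windows rich in it. Over the whole 300 bases, GC content was 44% for LOC105377378 and 43.3% for LOC124902978, against 69% for TEX10, 72% for CNBP, 68.7% for PPIA and 79.7% for SIPA1L2. Observed over expected CpG was 0.069 and 0.276 for the noncoding pair and 0.812, 1.06, 1.13 and 0.887 for the coding genes in the same order. Across all 35116 windows of the table the medians were 58.7% GC and 0.579. The same contrast held over all windows that overlapped an assembled locus: the 84 long noncoding ones had a median of 0.268 and the 34 coding ones 0.797, close to the medians of 0.286 and 0.737 over all windows of each class. A search on both strands, with matches of different motifs counted separately even where they overlapped, found TATAAA in the LOC105377378 and PPIA windows (11.5% of all windows), CCAAT in those of LOC124902978, CNBP, PPIA and SIPA1L2 (34.6%) and GGGCGG in the 4 coding windows (45%). TGANTCA, the letters of an AP-1 site, occurred in the LOC124902978 window alone of these 6 and in 7.71% of all windows.

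A mature microRNA sequence marks the surroundings of XLOC_087936, the second most abundant locus, which began 597 bases after the MIR3648-2 hairpin on chromosome 21. The mature hsa-miR-3648 (RefSeq, chr21:8987026-8987046, plus strand) is printed with its seed, bases 2 to 8, in capitals.
hsa-miR-3648: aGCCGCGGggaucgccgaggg

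The assembled loci were mostly short, single-transcript models. Their length ran from 275 to 328308 bases with a median of 4553, 134 were under 1000 bases and 22 exceeded 100000. A single transcript made up 808 loci (86.0%), 84 had 2 and 47 had 3 or more, for 1211 transcripts in all. The authors' long noncoding table held 799 of these transcripts from 675 loci, their mRNA table held 10 transcripts from 7 loci, and 402 transcripts stood in neither. All 799 had a transcript name that begins with LINC. The most complex models were XLOC_031772 on chromosome 12 and XLOC_080050 on chromosome 2, with 14 transcripts each. Strand and exon structure of the loci are not given in the files, so the sense of a locus relative to its neighbours is unknown.

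Nearly all loci lay outside the genes of GENCODE 29, which the choice of rows without an Ensembl identifier largely fixed in advance. Of 939 loci, 929 (98.9%) overlapped no gene of that release and 10 overlapped one, 9 of them at an exon. By the gene spans listed in the authors' own table, 140 loci overlapped an Ensembl gene. For the 914 loci with a GENCODE 29 gene on the same sequence and no overlap, the median distance to the nearest was 7178 bases. Within 1000 bases of a gene lay 152 loci (16.6%), while 53 lay more than 100000 bases away. A later annotation covers many of them: of the 905 loci on chromosomes, 437 (48.3%) overlapped a RefSeq gene, most often a long noncoding RNA (344 loci), less often a protein-coding gene (90) or a pseudogene (31). RefSeq overlap was found for 51 of the 74 chromosome loci (68.9%) averaging 0.5 FPKM or more and for 386 of the 831 (46.5%) below that level. The better expressed loci were also longer, with a median of 11942 against 3939 bases, and length was not held equal in this comparison. Among themselves, 130 loci overlapped another assembled locus, in pairs such as XLOC_035074 and XLOC_031301, which shared 37589 bases at 2.26 and 0.478 FPKM.

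Relative to the number of Ensembl genes, loci were dense on scaffolds and around the chromosome 9 centromere. Density per base was not counted, so sequence with few annotated genes stands high on this measure. There were 15.5 loci per 1000 Ensembl genes of the table overall. Chromosome 9 held 60 loci (25.8 per 1000), of which 34 lay between 38 and 70 Mb (99.4 per 1000), limits set by hand. Chromosome 16 had 15 loci (5.87 per 1000) and the mitochondrial genome none. Scaffolds carried 34 loci, found on 19 of them, against 59 Ensembl genes on all scaffolds of the table, or 576 per 1000. Of the 34, 6 reached a mean of 1 FPKM, compared with 29 of the 905 on chromosomes. Those 6 include XLOC_155936, XLOC_156301 and XLOC_155926, which lie beside ribosomal RNA genes of GENCODE 29 and are described below. Scaffolds and the chromosome 9 stretch hold duplicated sequence, where reads can map to several copies, so the levels of these loci are uncertain.

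All 939 loci were above 0 FPKM in at least 1 library, which is how such a row enters the table, so this is no measure of detection. Above 0 in all 6 libraries were 237 loci (25.2%), and 274 (29.2%) were above 0 in 1 library alone. The level in the libraries where a locus was above 0 fell and then rose with their number. Its median was 0.341, 0.228, 0.206, 0.186, 0.216 and 0.327 FPKM for loci seen in 1 to 6 libraries, in that order. A locus seen in 1 library is listed only through its level there. Median length was 3069 bases for those loci and 6582 for loci seen in all 6, so these levels are not like for like. The median of the mean over all 6 libraries, zeros included, was 0.102 FPKM. For comparison, the 7613 detected GENCODE 29 long noncoding genes had a median of 0.138 and the 16213 detected protein-coding genes 3.72 FPKM. A mean of at least 0.5 FPKM was reached by 85 loci (9.05%), at least 1 by 35 (3.73%) and at least 10 by 4. Values listed at 0 were written in 2 forms in the files, 1660 as a short zero and 885 as a zero with 6 decimals, and what separates the forms is not given in the sources used here. Among pairs of locus and library above 0 FPKM, 417 had a transcript at the long zero and 0 had one at the short zero. Of the zeros, 65.2% had the short form in the loci and 61.5% in Ensembl genes. Whether a locus listed at 0 had a missing estimate or an absent RNA cannot be told from these forms. Absolute depth is unknown, since FPKM carries no counts.

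**Figure D1:**
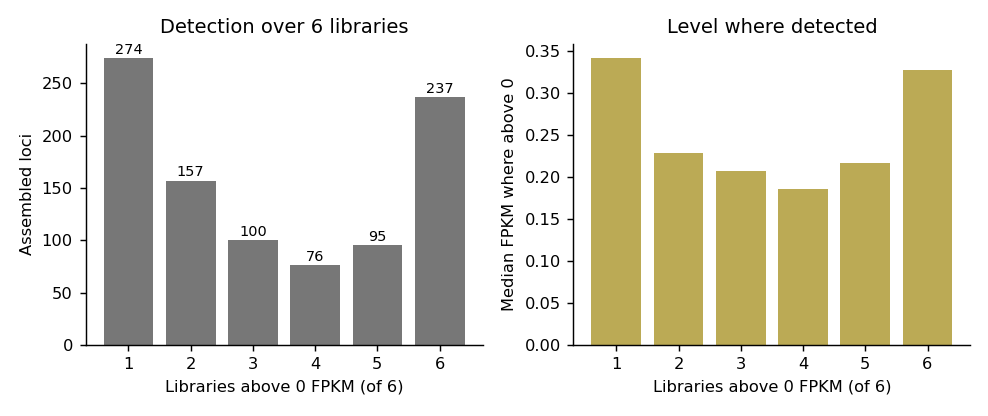
Left, number of assembled loci (y axis) by the number of libraries in which they were above 0 FPKM (x axis). Right, on the same x axis, the median over loci of their mean FPKM in the libraries where they were above 0. Loci seen in 1 library (274) and in all 6 (237) were the most frequent classes, and the median level where seen was 0.341 FPKM in the former and 0.327 FPKM in the latter.

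The 4 most abundant loci, all beside annotated ribosomal RNA genes or the microRNA genes MIR3648-2 and MIR3687-2, held most of the signal of the 939. Ribosomal RNA is transcribed from many near-identical repeats as a long precursor that is cut into the mature 18S, 5.8S and 28S RNAs, so reads cannot be assigned to 1 copy and these values are uncertain. The MIR3648 and MIR3687 hairpins are known from the external spacer of that precursor, and the 4 loci are called rDNA-linked below. XLOC_155936 (GL000220.1, 112351 to 116952) began 174 bases after the 5.8S gene RNA5-8SN2. It read 261.4, 232.3 and 143.7 FPKM in control libraries 1 to 3 and 179.8, 237.7 and 157.9 in LPS libraries 1 to 3. XLOC_087936 (chromosome 21, 8987775 to 8988251), 345 bases after MIR3687-2, read 167.8, 191.6 and 141.1 in controls and 141.3, 161.6 and 95.4 with LPS. XLOC_156301 (KI270733.1, 167810 to 171021), 2935 bases before a 5.8S gene, read 63.4, 76.3 and 64.4 in controls and 66.8, 129.5 and 63.3 with LPS. In each of these 3 loci the groups overlapped, and the log2 changes on the log2(FPKM + 0.5) scale were -0.12 (SE 0.24), -0.35 (SE 0.21) and 0.27 (SE 0.26), with adjusted p of 0.915, 0.655 and 0.799 by limma. For XLOC_087936 the change was -0.13 without LPS replicate 3.

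XLOC_155926 (GL000220.1, 157008 to 160952), 859 bases after the 5.8S gene RNA5-8SN4, was high in a single library. It read 80.8, 1.06 and 1.63 FPKM in controls and 1.37, 1.37 and 0.433 with LPS. Its log2 change of -2.13 (SE 1.37, adjusted p = 0.690 by limma) was the one change of at least 1 in size among the tested loci, and it became -0.30 without control replicate 1. The misc_RNA row RF01518 (ENSG00000273937), listed in the authors' table with a span on the same scaffold, had the same high library, at 246.5, 4.88 and 11.9 in controls and 0.537, 0.398 and 0.242 with LPS (log2 change -4.85, SE 1.24, adjusted p = 0.348 by limma). Both rows were thus far higher in control 1 than in the other control libraries.

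**Figure D2:**
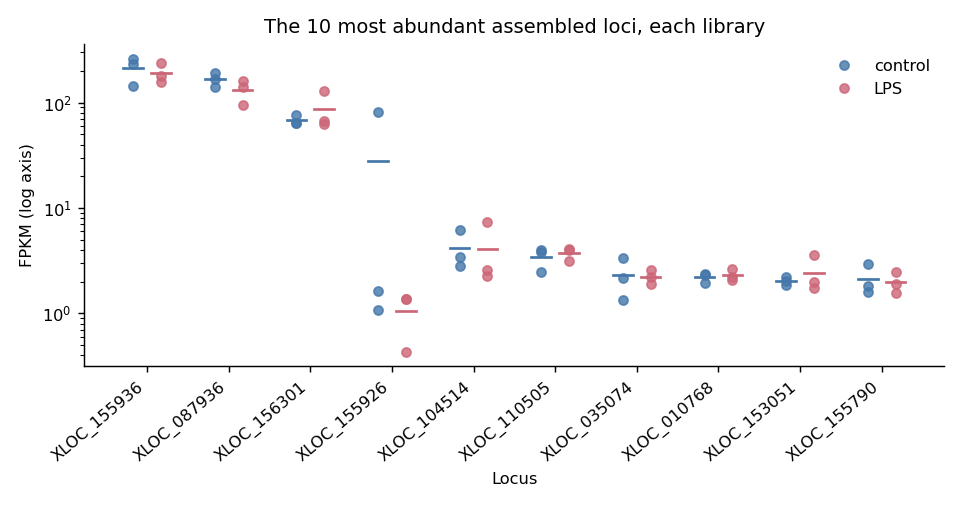
FPKM on a log axis (y axis) in each of the 6 libraries for the 10 most abundant assembled loci (x axis), controls in blue and LPS in red, with a line at each group's mean. Control and LPS points overlap in every locus shown, and in XLOC_155926 control replicate 1, at 80.8 FPKM, stands far above the other libraries.

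Below these came loci of 2.05 to 4.09 FPKM on average. XLOC_104514 (chromosome 4, 28607631 to 28910761) spanned 303131 bases with 8 transcripts in a stretch poor in coding genes and was the second longest of the tested loci. It read 3.404, 2.81 and 6.20 FPKM in controls and 2.60, 2.24 and 7.29 with LPS, so library 3 was highest in both groups. It overlapped the small features RN7SL101P, MIR4275 and MESTP3 and the RefSeq gene LOC105374559. By the authors' gene spans it also overlapped the long noncoding gene AC097480.1, which by GENCODE 29 ended 7356 bases before it. AC097480.1 stood at 4.02 ± 0.727 FPKM in controls and 7.56 ± 3.91 with LPS (SD, n = 3). Its log2 change was 0.74 (SE 0.33, adjusted p = 0.555 by limma). XLOC_110505 (chromosome 4, 114267902 to 114364971), over the RefSeq RNA LOC105377378 and 163677 bases from the nearest GENCODE 29 gene, read 3.97, 2.46 and 3.85 in controls and 4.02, 3.17 and 4.11 with LPS. XLOC_035074 (chromosome 12, 88376679 to 88419341), over LOC124902978, read 2.17, 1.34 and 3.39 in controls and 1.88, 2.58 and 2.19 with LPS. Their adjusted p by limma were 0.950, 0.869 and 0.993.

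The other 3 of the 10 most abundant loci were XLOC_010768 beside the profilin pseudogene PFN1P3 on chromosome 1, XLOC_153051 on chromosome 9 and XLOC_155790 on scaffold GL000195.1. XLOC_153051, which the authors classed as mRNA, read 2.01, 1.85 and 2.22 in controls and 1.75, 2.004 and 3.55 with LPS, with LPS library 3 highest. XLOC_010768 ran from 1.95 to 2.37 in controls and 2.05 to 2.65 with LPS, and overlapped the RefSeq gene NBPF20, a member of a repeated family. XLOC_155790 ran from 1.60 to 2.95 and from 1.55 to 2.49. The 2 other longest loci were XLOC_065258 (chromosome 18, 328308 bases, 11 transcripts), at 1.08 to 2.01 and 1.39 to 2.40 FPKM, and XLOC_131049 (chromosome 6, 299782 bases), at 0.654 to 1.12 and 0.373 to 1.12. Groups overlapped in all 5.

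Summed over the 939 loci, the FPKM was 754.6, 677.3 and 577.5 in controls and 562.7, 716.8 and 555.3 with LPS, or 0.115% to 0.159% of the table's sum. The mean was 670 ± 88.8 (SD, n = 3) in controls and 612 ± 91.2 with LPS, with overlapping groups (exact permutation test, two-sided, p = 0.5, where 3 against 3 cannot go below 0.1). In bulk RNA, fewer transcribing cells and less RNA per cell cannot be told apart. The 4 rDNA-linked loci took 57.1% to 76.0% of the sum in each library, at 573, 501 and 351 FPKM in controls and 389, 530 and 317 with LPS. The other 935 loci summed to 181, 176 and 227 in controls and 173, 187 and 238 with LPS (exact permutation test, two-sided, p = 0.7). Library 3 of each group was thus lowest for the rDNA-linked loci and highest for the rest.

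**Figure D3:**
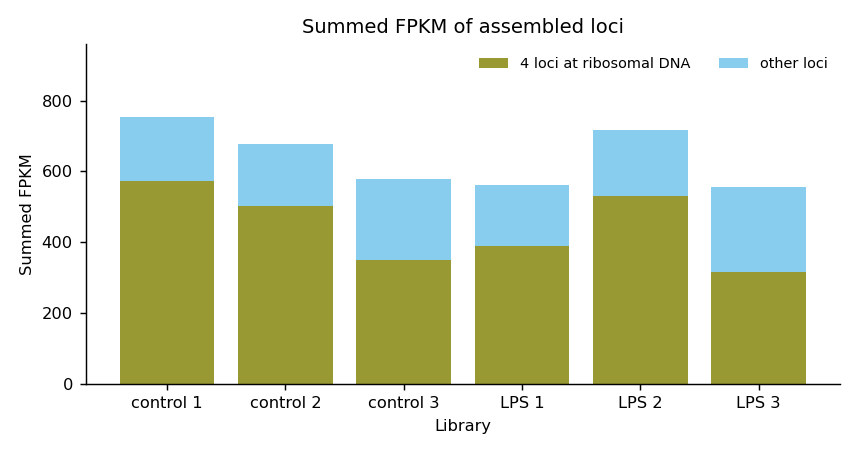
Summed FPKM (y axis) of the 4 rDNA-linked loci and of the other 935 assembled loci, stacked for each library (x axis). Totals run from 555.3 to 754.6 FPKM, and the upper segment is largest in control 3 (227 FPKM) and LPS 3 (238 FPKM).

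The number of loci above 0 FPKM was 510, 508 and 561 in controls and 502, 489 and 519 with LPS, a mean of 526 ± 30.0 against 503 ± 15.0 (SD, n = 3, exact permutation test, two-sided, p = 0.4). The difference of -23 loci became -5.67 without control replicate 3 and -7.67 for loci above 0.1 FPKM. At 1 FPKM or more stood 35, 31 and 46 loci in controls and 24, 42 and 45 with LPS (37.3 ± 7.77 against 37.0 ± 11.4, SD, n = 3, exact permutation test, two-sided, p = 1). Neither count separated the groups. Library 3 again held the highest number at 1 FPKM in each group. Over 80 tested loci, leaving out the 4 rDNA-linked ones and 1 not described singly, the median deviation from a locus's own mean was 0.14 in control 3 and 0.19 in LPS 3 on the log2(FPKM + 0.5) scale, and -0.06, -0.08, -0.08 and -0.07 in control 1, control 2, LPS 1 and LPS 2. Of these loci, 43 had their highest control value in control 3 and 48 their highest LPS value in LPS 3. The medians over 15859 tested Ensembl genes in the same libraries were 0.04 and 0.05, and over the 2420 of them with a mean of 0.5 to 1 FPKM 0.04 and 0.04. Whether depth or RNA quality differed in these libraries was not tested, as the files give neither.

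Whether LPS altered any assembled locus was asked with limma on log2(FPKM + 0.5) over all 15944 genes averaging 0.5 FPKM or more, with p-values adjusted over that table. Of the 85 assembled loci tested, 0 passed an adjusted p of 0.05, where 8 genes (0.0502%) of the whole table did. With a block for replicate number, or with no filter on low values, 0 genes of the table passed. The lowest adjusted p among the loci was 0.428. At an unadjusted p under 0.05 stood 7 loci (8.24%), against 9.21% of all genes tested, 6 of them higher with LPS (7.06%, against 4.57% of the table) and 1 lower (1.18%, against 4.63%). Log2 changes were positive for 40 loci and negative for 45, with a median of -0.01 both for the loci and over all genes tested. Groups did not overlap for 8 loci (9.41%), against 15.9% of the table. The median SE was 0.23 for the loci and 0.18 for all genes tested, and the smallest change among the genes that passed was 0.89 in size on the log2 scale, which 1 locus exceeded. Changes on the log2(FPKM + 0.5) scale are understated for loci this low.

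**Figure D4:**
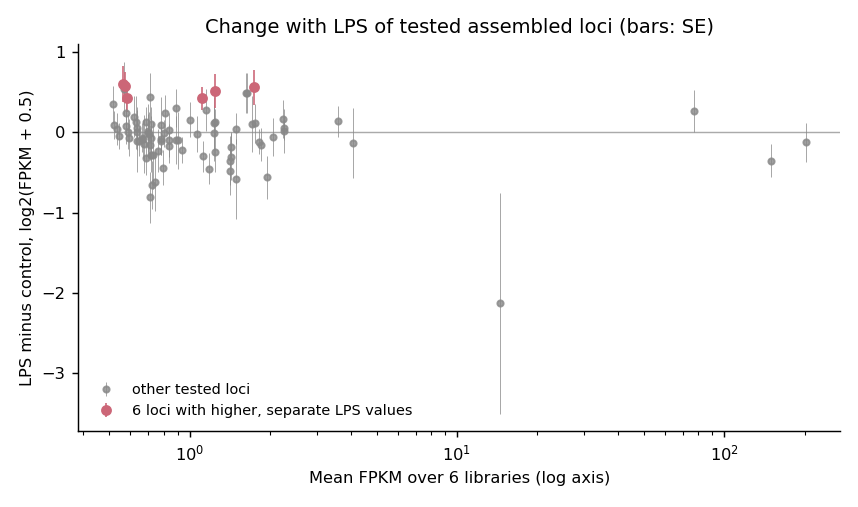
Log2 change with LPS, with its SE (y axis), against mean FPKM on a log axis (x axis) for 84 tested assembled loci. The 6 loci in red had higher LPS values that did not overlap the controls, with changes of 0.42 to 0.60, and the lone low point at -2.13 is XLOC_155926. No locus passed the adjusted threshold.

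The 6 loci with an unadjusted p under 0.05, higher LPS values and no overlap between groups (7.06% of 85, where 8.13% of all genes tested had higher, separate LPS values) are described next as the upper end of the 85, not as calls. They lay between 160 and 7289 bases from the nearest GENCODE 29 gene, 4 of them within 489 bases of a coding gene. XLOC_009785 (chromosome 1, 92025503 to 92029617) lay 365 bases before the start of EPHX4, an epoxide hydrolase gene. It read 0.329, 0.484 and 0.272 FPKM in controls and 0.807, 0.649 and 0.879 with LPS. All LPS libraries were above all controls, with a log2 change of 0.57 (SE 0.18, adjusted p = 0.428 by limma). EPHX4 itself stood at 1.38 ± 0.204 and 1.36 ± 0.344 FPKM (SD, n = 3), a log2 difference of -0.02 (SE 0.19).

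XLOC_083865 (chromosome 2, 236161387 to 236165057) lay 179 bases beyond the end of GBX2, a homeobox gene best known from hindbrain patterning, and overlapped the RefSeq outline of that gene. It read 0.907, 0.776 and 1.09 FPKM in controls and 1.27, 1.28 and 2.16 with LPS. The lowest LPS library lay above the highest control, with a log2 change of 0.51 (SE 0.21, adjusted p = 0.527 by limma). GBX2 stood at 0.478 ± 0.105 FPKM in controls and 1.38 ± 0.593 with LPS (SD, n = 3), with a log2 change of 0.89 (SE 0.27, adjusted p = 0.416 by limma). Locus and gene thus both had higher LPS means, and neither passed the threshold.

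XLOC_052869 (chromosome 16, 88443500 to 88452828) filled the gap between ZNF469, a zinc finger gene, and ZFPM1, a cofactor of GATA factors, and overlapped the RefSeq outline of ZFPM1. It read 0.493, 0.404 and 0.148 FPKM in controls and 0.711, 0.646 and 0.968 with LPS, with the groups apart (log2 change 0.60, SE 0.22, adjusted p = 0.485 by limma). ZNF469, 2743 bases away, stood at 14.7 ± 2.14 FPKM in controls and 25.2 ± 5.10 with LPS (SD, n = 3), a log2 change of 0.75 (SE 0.17, adjusted p = 0.309 by limma). ZFPM1, 489 bases away on the other side, stood at 1.27 ± 0.0444 and 1.42 ± 0.264.

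XLOC_007929 (chromosome 1, 23555585 to 23557758) lay 160 bases beyond the end of ID3, an inhibitor of helix-loop-helix transcription factors. It read 0.478, 0.473 and 0.319 FPKM in controls and 0.663, 0.893 and 0.669 with LPS, a log2 change of 0.43 (SE 0.18, adjusted p = 0.530 by limma). ID3 was far more abundant and similar in the 2 groups, at 117 ± 17.3 and 121 ± 9.90 FPKM (SD, n = 3), a log2 difference of 0.07 (SE 0.13). XLOC_088859 (chromosome 21, 45364253 to 45372592), over the RefSeq RNA LOC124905041, had the tightest groups of the 6. It read 0.887, 0.825 and 0.918 FPKM in controls and 1.34, 1.28 and 1.42 with LPS, a log2 change of 0.42 (SE 0.15, adjusted p = 0.452 by limma).

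XLOC_154918 (chromosome 9, 111942658 to 111952691), over LOC124902250 and 7289 bases from UGCG, the gene of ceramide glucosyltransferase, read 1.51, 0.877 and 1.56 FPKM in controls and 2.74, 1.93 and 1.82 with LPS. Its log2 change was 0.56 (SE 0.22, adjusted p = 0.515 by limma), and UGCG stood at 32.1 ± 2.06 and 31.9 ± 1.91 FPKM (SD, n = 3).

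**Figure D5:**
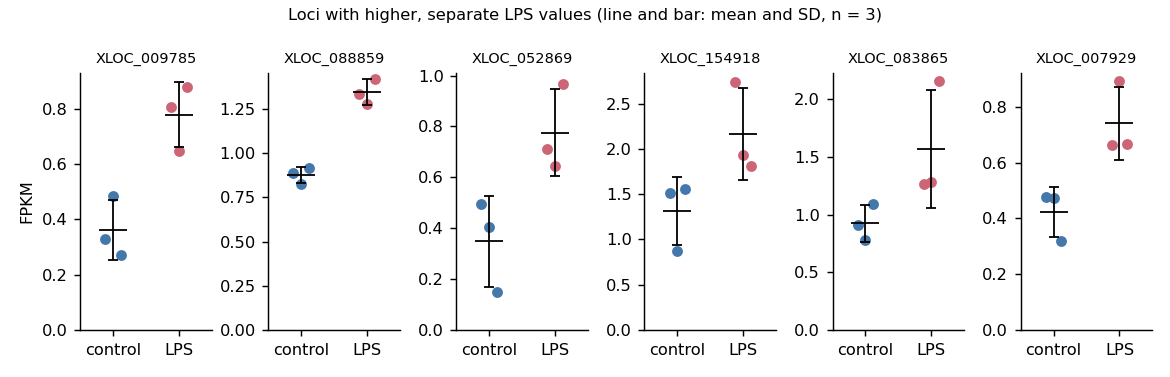
FPKM (y axis) in each control and LPS library (x axis) for the 6 loci with higher, separate LPS values, with group means and SDs (n = 3). The LPS points lie above the control points in each panel, most tightly in XLOC_088859 (0.877 ± 0.0472 against 1.35 ± 0.0730 FPKM), while each adjusted p was 0.428 or more.

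At the other end, no locus met the same conditions in the lower direction. XLOC_118867 (chromosome 5, 83023013 to 83044630), singled out here after its values were seen as the 1 locus lower at an unadjusted p under 0.05, read 0.672, 1.14 and 1.25 FPKM in controls and 0.244, 0.131 and 0.828 with LPS. LPS library 3 overlapped the controls, and the log2 change was -0.81 (SE 0.31, adjusted p = 0.510 by limma). The 2 loci whose LPS values all lay below the controls (2.35%, against 7.76% of the table), named for that reason, were XLOC_153442 on chromosome 9 and XLOC_123318 on chromosome 6. XLOC_153442, which the authors classed as mRNA, stood at 1.45 ± 0.383 and 0.913 ± 0.145 FPKM (log2 change -0.45, SE 0.20, adjusted p = 0.547 by limma). XLOC_123318, which spans RefSeq tRNA genes, stood at 0.983 ± 0.143 and 0.610 ± 0.238 (log2 change -0.44, SE 0.21, adjusted p = 0.590 by limma).

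None of the loci beside the coding promoters shown above passed the threshold. XLOC_150674, beside TEX10, read 1.05, 1.15 and 0.920 FPKM in controls and 0.923, 0.849 and 0.702 with LPS. XLOC_095921, beside CNBP, read 0.715, 0.654 and 0.685 in controls and 0.556, 1.03 and 1.22 with LPS, where LPS library 1 lay below the controls and the others above. XLOC_013630, on the transcribed side of SIPA1L2, read 1.79, 1.60 and 1.03 in controls and 1.57, 1.55 and 1.41 with LPS. XLOC_137679, upstream of PPIA, was erratic, from 0.486 to 1.25 in controls and from 0.148 to 1.42 with LPS. Their log2 differences, in this order, were -0.22 (SE 0.16), 0.25 (SE 0.22), 0.05 (SE 0.19) and -0.29 (SE 0.42), with adjusted p by limma of 0.739, 0.779, 0.959 and 0.869. Their genes ran from 3.23 ± 0.946 FPKM for SIPA1L2 to 384 ± 154 for PPIA in controls (SD, n = 3), and each locus was below its neighbour.

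Loci listed at 0 throughout a group came in similar numbers for both groups, mostly through values in a single library. The same counts over all genes are not given here, so these numbers are not read as a trait of the loci. All controls were at 0 in 178 loci and all LPS libraries in 174. In the first set 3 loci were above 0 in all 3 LPS libraries and 147 in a single one. In the second 11 were above 0 in all 3 control libraries and 127 in a single one. The difference between 3 and 11 was not tested. The highest of the first set by mean LPS level were XLOC_011481 near PCP4L1 on chromosome 1 (0.518, 0.216 and 0.457 FPKM with LPS), XLOC_003895 (0, 1.02 and 0) and XLOC_068815 between DAPK3 and EEF2 (0.590, 0 and 0.264). The highest of the second set by mean control level were XLOC_017022, 1005 bases before GRK5 (0, 0.472 and 0.512 in controls), XLOC_080021, 1091612 bases from the nearest GENCODE 29 gene on chromosome 2 (0.228, 0.745 and 0) and XLOC_002806, 529 bases before RPL5 (0.213, 0.210 and 0.504). None of these 6 reached a mean of 0.5 FPKM over the 6 libraries, so none was tested, and no fold is given against a group listed at 0.

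Transcripts of the loci were fitted in the same way. Of 69 assembled transcripts tested among 35727, 0 passed an adjusted p of 0.05 by limma (35 of all tested, 0.098%, and 0 of all tested with the replicate block), the lowest adjusted p was 0.819, and 1 had an unadjusted p under 0.05 (1.45%, against 5.77% of all tested). It was higher with LPS, as were 2.85% of all tested at that p, while 0 were lower (2.92%). Groups did not overlap for 4 transcripts higher with LPS (5.8%, against 6.18%) and 1 lower (1.45%, against 6.24%), together 7.25% against 12.4%. That transcript, TCONS_00363010 of XLOC_154918, read 0.384, 0.254 and 0.520 FPKM in controls and 0.757, 0.863 and 0.954 with LPS. Models of the same locus shared its signal unevenly between libraries. In XLOC_052869, TCONS_00128739 read 0.0203, 0.382 and 0.148 in controls and 0.666, 0.0116 and 0.949 with LPS, while TCONS_00128738, with the same outer ends, read 0.359, 0.0226 and 0 and then 0.0449, 0.502 and 0.0194. In control 1 and LPS 2 nearly all of the pair's signal fell to the latter, and in the other 4 libraries to the former. Over the 52 tested loci with 2 or more transcripts, the median coefficient of variation across the 6 libraries was 34.7% for the locus and 93.6% for its 227 transcripts.

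Across the series, summed FPKM of all genes ran from 427920 to 483345 and genes above 0 from 26436 to 27944 per library. Of the marker lists, 11 of 12 endothelial genes reached a mean of 1 FPKM (summed 386 to 508 in controls and 472 to 605 with LPS), as did 6 of 12 epithelial and A549 genes (137 to 147 and 98.1 to 122), with EPCAM at 0.0250. All 8 fibroblast and smooth muscle genes did so too (3911 to 4263 and 3760 to 4293), and 2 of 9 leukocyte genes (7.65 to 13.2 and 12.0 to 17.2), with PTPRC listed at 0 in every library. The part of these markers in the values of the assembled loci was not tested.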

How the data were processed

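RNA-seq values of 6 libraries (3 control, 3 LPS) were used as deposited: FPKM (fragments scaled to transcript length and mapped fragments) calculated by the authors, in 5 tables. The submitters' processing notes list HISAT2 and StringTie, giving no version. Counting strand, assembly options and read counts were not given in the sources used here. Those notes name the mouse build mm9, whereas the tables hold human identifiers: 58587 of 60617 Ensembl genes (96.7%) were found in GENCODE 29, 72.5% of those with the same start and end, so coordinates are GRCh38. RefSeq overlaps and sequences come from tables of GRCh38.p14.

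Members and lists were chosen with earlier results of these data known. The whole gene and transcript tables were filtered at a mean of 0.5 FPKM and fitted in R 4.3.3 by limma 3.58.1 as log2(FPKM + 0.5) (group alone, eBayes with trend, Benjamini-Hochberg adjustment over each table, threshold 0.05). The procedure was tested on simulated data. Single values per library were compared with exact two-sided permutation tests (scipy 1.17.1). Named loci are the 10 highest by mean, those past the threshold, otherwise up to 8 per direction with unadjusted p under 0.05 and no overlap between groups, up to 3 listed at 0 in all libraries of a group, and the 3 longest tested. Other loci named were chosen after their values were seen, except those beside coding promoter windows, which are all such tested loci. Alternatives were pseudocounts of 0.1 and 1, no filter, a minimum of 1 FPKM, median-of-ratios and quantile scaling, a replicate block, robust eBayes, library weights and leaving out each library. For values per library they were rescaling, leaving out loci that overlap GENCODE 29 genes, the most abundant locus or each library, a limit of 0.1 FPKM, and, chosen after seeing the data, leaving out the 4 rDNA-linked loci. Absolute depth is unknown, so no counting interval is given. Loci on chromosome Y (2) were counted and not described singly.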

Additional observations from a re-analysis of the deposited data

How the results depend on the processing

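With limma, 0 assembled loci and 0 assembled transcripts passed the adjusted threshold under each of the 15 refits of either table (other pseudocounts, filters, scalings, robust eBayes, library weights, the replicate block and each library left out). At an unadjusted p under 0.05 by limma there were 7 loci (8.24%, against 9.21% of all genes tested) and 1 transcript (1.45%, against 5.77% of all transcripts tested). Of the named loci, 6 stood at that p, but they were named partly for it, so this number was fixed by the choice. Without a filter, 47 of 939 loci had an unadjusted p under 0.05 by limma (17 higher and 30 lower with LPS), against 2196 of all 33999 genes fitted. How those 2196 split by direction is not given here, so the split of the loci has no background. The replicate block left 0 of 85 loci past the threshold, with 11 at an unadjusted p under 0.05 (5 higher, 6 lower). Over all 15944 genes tested, 1736 stood at that p with the block, their split by direction not given here, and 1468 without it. Over genes, same-numbered libraries correlated at 0.0260, 0.121 and 0.0926 in their deviations from group means, each highest with its own number. Over transcripts the values were 0.0024, 0.0154 and 0.0190. There control 1 correlated more with LPS 3 (0.0040) than with LPS 1, while numbers 2 and 3 were again highest with their own. This is a weak hint of pairing, from the data and not from the design. As no label ties the numbers to a shared culture, the libraries were treated as unpaired, and the block was fitted as an alternative. With the block, 0 of 15944 genes passed, against 8 without it. The summed FPKM difference, LPS minus control, was -58.2, between -111 and -15.7 with single libraries left out, and turned to 4.85 without the 4 rDNA-linked loci (chosen after seeing the data). The difference in loci above 0 FPKM was -23, from -32.2 to -5.67 with single libraries left out and -7.67 above 0.1 FPKM. The difference in loci at 1 FPKM or more was -0.333, and ran from -4.33 to 6.17 with single libraries left out, turning positive without control replicate 3 or LPS replicate 1. The 6 higher loci had adjusted p of 0.413 to 0.803 over the settings that tested them, and their direction was fixed by the choice of groups that do not overlap. The change of XLOC_087936 ran from -0.51 to -0.13 with single libraries left out. Of the named loci tested, 9 changed sign with some single library left out: XLOC_010768 (-0.0318 to 0.121), XLOC_035074 (-0.25 to 0.28), XLOC_065258 (-0.10 to 0.25), XLOC_104514 (-0.60 to 0.17), XLOC_110505 (-0.0551 to 0.242), XLOC_153051 (-0.0878 to 0.335), XLOC_155790 (-0.21 to 0.15), XLOC_155936 (-0.382 to 0.0484) and XLOC_156301 (-0.0606 to 0.453). The cause was not tested. With depth unknown and 48.6% of loci under a mean of 0.1 FPKM, differences of most loci were not measurable here.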
